A study of Homo sapiens with 9 samples.

Results

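The high mobility group (HMG) genes HMGB1, HMGB2, HMGB3, HMGA1, HMGA2, HMGN1, HMGN2, HMGN3 and HMGN4 were examined for Ago-HITS-CLIP peaks of either miR-342 strand. The 9 genes were selected around HMGB2, which was chosen for the score of its miR-342-3p peak, so that scores and the presence of peaks are given here as a description without a test. Their members are the peaks whose midpoint lay on the strand of the gene within its annotated body, which were 2 of 3450 miR-342-3p peaks and 10 of 5010 miR-342-5p peaks. No score was needed beyond the lowest in the lists, 5, and the 12 peaks had scores from 6 to 634 and widths from 38 to 99 nt. Counting any overlap with a gene body gave the same numbers, 2 and 10.

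Ago-HITS-CLIP crosslinks Argonaute to the RNA it holds, immunoprecipitates the complex and sequences the attached fragments. MDA-MB-231HM cells, a highly metastatic variant of a triple negative breast cancer line, received 20 nM of a negative control mimic, a miR-342-3p mimic or a miR-342-5p mimic for 48 h, in 3 libraries each and 9 in all. A mimic is a synthetic miRNA duplex, so the amount loaded is set by transfection and not by the cells' own miR-342. Each list merges the 3 libraries of a mimic over the same 3 control libraries, so no depth, SD or difference between replicates could be computed, the lists share their control, and scores are not compared between lists. The lists hold no mRNA levels, and neither the markers of the cell line nor the abundance of an HMG mRNA could be checked.

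HMG proteins are abundant non-histone proteins of chromatin. HMGB proteins carry a pair of DNA-bending HMG boxes, named A and B, and an acidic tail, HMGA proteins bind the minor groove of AT-rich DNA through AT hooks, and HMGN proteins bind nucleosomes. HMGB2 is known for its high level in dividing cells, HMGB1 also acts outside cells as an alarm signal, and HMGA2 is an embryonic gene often active again in tumours.

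The mature miRNAs (RefSeq) are shown with bases 2 to 8, the seed, in capitals, because pairing of an mRNA with the seed defines the usual target sites.
miR-342-3p: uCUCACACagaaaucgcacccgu
miR-342-5p: aGGGGUGCuaucugugauuga
A 7mer-m8 site pairs with bases 2 to 8 (GUGUGAG for miR-342-3p and GCACCCC for miR-342-5p), a 7mer-A1 site pairs with bases 2 to 7 and has an A opposite base 1 (UGUGAGA and CACCCCA), and an 8mer has both features. A 6mer pairs with bases 2 to 7 alone (UGUGAG and CACCCC). Offset sites are moved by 1 base, pairing with bases 3 to 8 (6mers GUGUGA and GCACCC) or 3 to 9 (7mers UGUGUGA and AGCACCC). These words overlap each other and were searched within 50 nt of each summit. A match is a description of the letters present.

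The miR-342-3p peaks lay in the 3′UTRs of HMGB2 and HMGB3. The stretches at their summits are shown because neither holds a seed site, with the alternating GU run of HMGB2 and the offset 6mer of HMGB3 in capitals (GRCh37, which corresponds to hg19).
HMGB2, chr4:174253181-174253210, minus strand: cguguggaaUGUGUGUGUGUGcucaggcaa
HMGB3, chrX:150156665-150156694, plus strand: acuuugcuguugGUGUGAcaaggcauuuaa

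HMGB2 (chr4:174252527-174255583, minus strand) had the higher of the 2 miR-342-3p scores in the family, which was chosen for this score. Its peak, at chr4:174253173-174253256, had a score of 634 and ranked 24 of 3450 in the miR-342-3p list and 14 of 1181 among peaks in 3′UTRs. It spans the end of the open reading frame, with 23 nt in the last coding exon and 61 nt in the 3′UTR (707 nt with the stop codon), and its summit lies 35 nt after the stop codon. The HMGB3 peak, at chrX:150156633-150156701 on the plus strand, had a score of 72 and ranked 545 of the list and 215 among 3′UTR peaks. Its summit lies 284 nt into the 2860 nt 3′UTR after the stop codon. HMGB1, HMGA1, HMGA2 and the 4 HMGN genes had no miR-342-3p peak, so 2 of 9 genes were bound, where the list reached 11.8% of 20163 protein-coding genes on their own strand. This share is given as background, and nothing is read from it since the family was chosen on the same list.

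**Figure D1:**
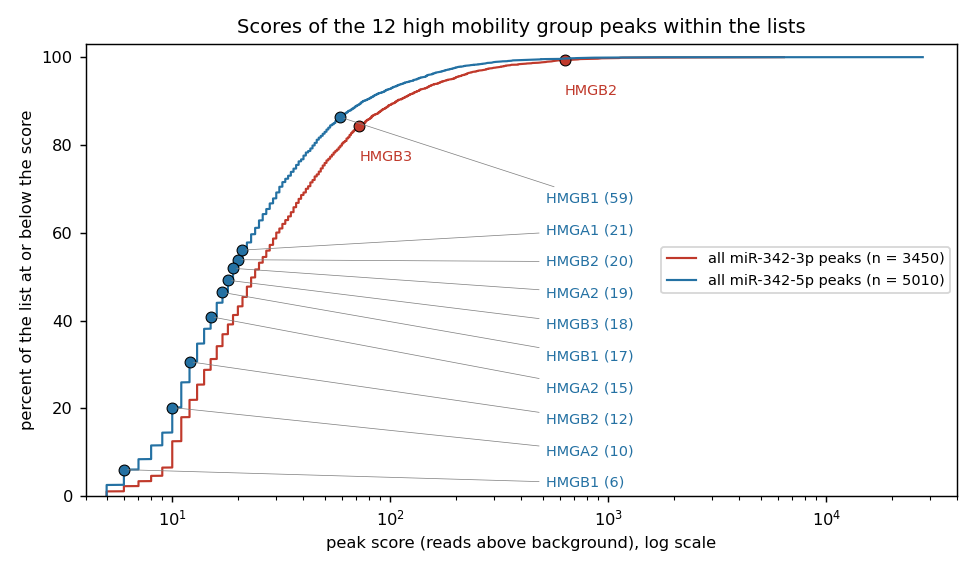
Cumulative distribution of peak scores (x axis, log scale, reads above background) in the miR-342-3p list (red) and the miR-342-5p list (blue), as the percent of peaks at or below each score (y axis); circles are the 12 peaks in HMG genes. Each circle is to be read against the curve of its own list: HMGB2 (634), for which the family was chosen, sits near the top of the miR-342-3p curve, and the 10 miR-342-5p peaks spread along their curve from 6 to 59.

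The summit of HMGB2 falls inside a UG run of 12 nt (chr4:174253190-174253201) that begins 30 nt after the stop codon. No 7mer, 8mer, 6mer or offset site was found around it, on the strand of the peak or on the opposite strand. The run holds GUGUG, the complement of bases 4 to 8 of miR-342-3p. In the predicted duplex of the miRNA with this window, 17 bases paired, among them 6 of the 7 seed bases, and the target part reached from 18 nt before to 5 nt after the summit, which takes in most of the run. The duplex energy was -16.6 kcal/mol, beside a median of -16.0 over the list (quartiles -18.7 and -13.3), and 42.9% of the windows had a lower energy. The energy at HMGB2 was thus in the middle of the list while its score was near the top.

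Of the 14 miR-342-3p peaks in 3′UTRs with a score of at least 634, 4 had a 7mer or 8mer site, 9 had no site of any type and 4 lay at a GU run of 12 nt or more. A run of this length was present in 205 of the 1181 peaks in 3′UTRs (17.4%), and in 1 of 895 in the miR-342-5p list (0.112%). Of the 205, 129 had no site of any type, and 2 of these had a score above that of HMGB2. Counted from the sequence, 3′UTRs of protein-coding genes hold 208 runs of exactly 12 nt, of which 31 (14.9%) carried a miR-342-3p peak. Their median score was 37 and the highest was that of HMGB2, followed by 297. HMGB2 was chosen for its score, and 12 nt is the length of its own run, so nothing is read from its place in this class. Of the runs of 13 to 19 nt, 77 of 488 (15.8%) carried a peak, with a median score of 40 and a highest of 5334. Of the runs of 20 nt or more, 117 of 434 (27%) carried a peak, with a median score of 27 and a highest of 2295. The longest run in the 3′UTRs of the other 8 members was between 5 and 9 nt, 7 nt in HMGB1 and 9 nt in HMGB3, so HMGB2 alone of the family holds a run of this length there.

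**Figure D2:**
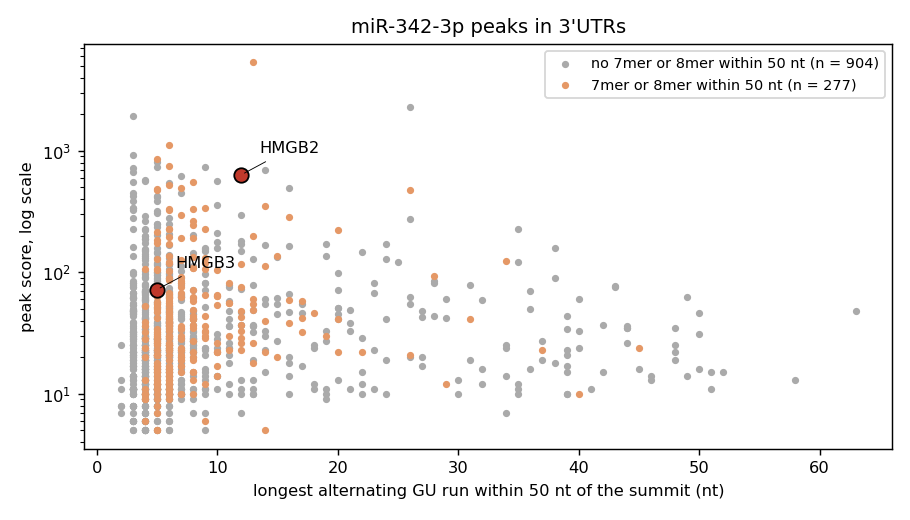
Score (y axis, log scale) against the longest alternating GU run within 50 nt of the summit (x axis, nt) for the 1181 miR-342-3p peaks in 3′UTRs, with peaks that have a 7mer or 8mer site in orange and the others in grey. HMGB2 (run of 12 nt, score 634) lies above most peaks with a run of similar length, and HMGB3 (5 nt, 72) lies among the peaks without a run.

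At HMGB3, the offset 6mer GUGUGA starts 6 nt after the summit, and the window has no longer match. Offset sites without a 6mer, 7mer or 8mer were present in 214 of the 1181 peaks in 3′UTRs (18.1%), with a median score of 25. The predicted duplex (-14.1 kcal/mol, with 67.9% of the list lower) used bases 7 to 21 of the miRNA and only 1 base pair of the seed. The word GUGUGA was found in 33.6% of all miR-342-3p windows and in 1.36% on their opposite strand. It is also part of the 7mer-m8 and of the offset 7mer, and 17.2% of all windows hold the 7mer-m8. The 33.6% is thus not a share of windows like that of HMGB3.

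The 10 miR-342-5p peaks lay in HMGB1 (3), HMGB2 (2), HMGB3 (1), HMGA1 (1) and HMGA2 (3), which are 5 of 9 genes, where 11.8% of protein-coding genes had a miR-342-5p peak. This share takes in all annotated genes whatever their mRNA level in these cells, and nothing is read from it. The median score of the 10 peaks was 17.5 beside 19 over the list. None was in a 3′UTR. The 6 peaks of the HMGB genes were all in coding exons, and the 4 of the HMGA genes all in introns. Of the 4963 peaks of the list outside mitochondrial DNA, 3485 were in coding exons, 895 in 3′UTRs and 253 in introns. Most peaks of the list were thus in coding exons, and the absence from 3′UTRs among 10 peaks is not read as a trait of the family. HMGB2 and HMGB3 were thus the members with peaks of both mimics, at different positions of the mRNA.

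**Figure D3:**
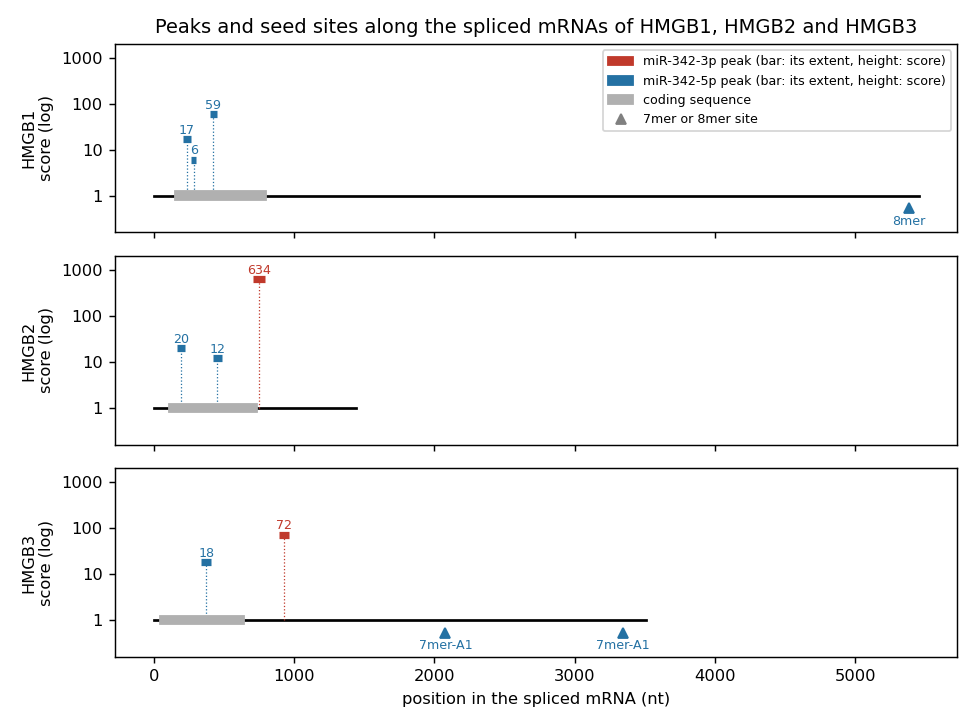
Spliced mRNAs of HMGB1, HMGB2 and HMGB3 (x axis, nt from the 5′ end; grey box, coding sequence), with each peak as a bar at the height of its score (y axis, log scale; red, miR-342-3p; blue, miR-342-5p) and 7mer or 8mer sites as triangles. The miR-342-5p peaks lie in the coding sequences, the miR-342-3p peaks of HMGB2 (634) and HMGB3 (72) at or after their end, and the sites in the 3′UTRs of HMGB1 and HMGB3 carry no peak.

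HMGB1 had the highest of the miR-342-5p scores, 59 at chr13:31037344-31037395, which covers codons 82 to 99 and ranked 686 of 5010. The offset 6mer GCACCC starts 11 nt before its summit. A peak with a score of 17, at chr13:31037709-31037766 (codons 18 to 37), has the offset 7mer AGCACCC starting 5 nt after its summit. Next to it, a peak with a score of 6 at chr13:31037668-31037705 (codons 38 to 50) has the same word, 49 nt before its summit, since the windows of these neighbouring peaks overlap. None of the HMGB1 peaks had a 6mer, 7mer or 8mer.

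In HMGB2, the miR-342-5p peaks were at chr4:174254682-174254744 (score 20, codons 19 to 40) and chr4:174254064-174254128 (score 12, codons 105 to 127). The HMGB3 peak was at chrX:150155601-150155675 (score 18, codons 97 to 122). No seed or offset site was found in these windows. The word CACCC, the complement of bases 3 to 7 of miR-342-5p, was present in both HMGB2 windows and absent from that of HMGB3. It was present in 5 of the 6 coding windows of the HMGB genes on the strand of the peak and in 0 on the opposite strand. The overlapping HMGB1 windows with scores of 17 and 6 hold the same copy of the word, which is therefore counted in each. Among all 2529 miR-342-5p peaks in coding exons without a 7mer or 8mer, 43.5% held CACCC and 8.98% held it on the opposite strand. CACCC is part of the 6mer and of both offset words, so the HMGB1 windows hold it by definition. The 2529 include 566 peaks with a 6mer and 187 with an offset site as best match, which also hold it by definition. The share is therefore not a like comparison for the HMGB2 and HMGB3 windows, which have no site. Among coding peaks without a site the share is lower, since the peaks that hold CACCC by definition are then left out. Over all coding peaks, 27.4% had a 7mer or 8mer, 5.37% an offset site alone and 51% no site.

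The proteins encoded by HMGB1 (215 residues), HMGB2 (209) and HMGB3 (200) were aligned in pairs, with 81.3% identical residues between HMGB1 and HMGB2, 76% between HMGB1 and HMGB3, and 75.5% between HMGB2 and HMGB3. In this alignment, the HMGB1 peak with a score of 17 and the HMGB2 peak with a score of 20 covered 19 codons in common, and their summits lay 5 codons apart. The HMGB2 peak with a score of 12 and the HMGB3 peak covered 20 codons in common, with the summits at the same aligned codon. The HMGB1 peak with the highest score had no counterpart in HMGB2 and met that of HMGB3 in 1 codon. The HMGB1 peak with a score of 6 shared 3 codons with the HMGB2 peak with a score of 20, and their summits lay 13 codons apart.

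**Figure D4:**
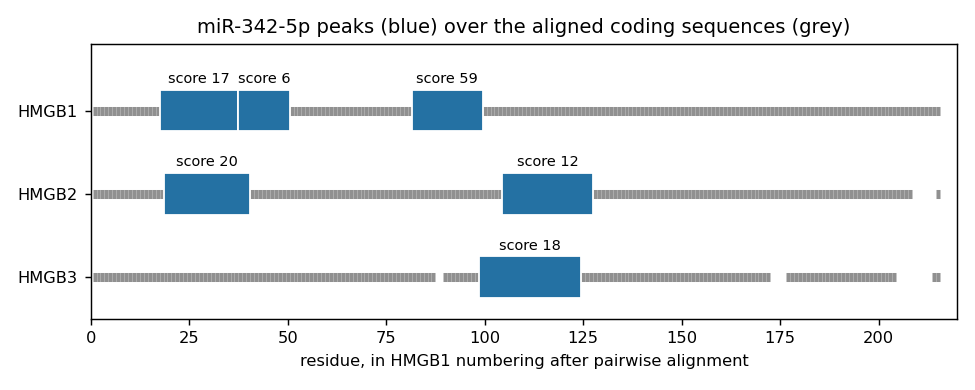
MiR-342-5p peaks (blue boxes with their scores) along the coding sequences of HMGB1, HMGB2 and HMGB3 (grey, with gaps where the alignment has them); the x axis is the residue in HMGB1 numbering. Peaks with summits at residues 28 and 33 overlap between HMGB1 and HMGB2, those with summits at residue 112 between HMGB2 and HMGB3, and the HMGB1 peak with a score of 59 stands alone but for 1 codon.

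The aligned coding stretches are shown because they differ at the word in question while most of the surrounding letters are the same. Capitals mark the letters aligned with GCACCC of HMGB1 under its peak with a score of 59.
HMGB1, chr13:31037346-31037372, minus strand, score 59: aaggaucccaauGCACCCaagaggccu
HMGB2, chr4:174254222-174254248, minus strand, no peak: aaggaccccaauGCUCCUaaaaggcca
HMGB3, chrX:150154635-150154661, plus strand, no peak: aaggauccuaauGCUCCCaaaaggcca
Of the 27 letters, 22 in HMGB2 and 23 in HMGB3 were as in HMGB1, and GCACCC was present in HMGB1 alone.

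The same comparison under the HMGB1 peak with a score of 17 gave a word that HMGB2 holds in part.
HMGB1, chr13:31037710-31037742, minus strand, score 17: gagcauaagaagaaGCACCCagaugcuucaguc
HMGB2, chr4:174254693-174254725, minus strand, score 20: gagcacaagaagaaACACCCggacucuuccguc
HMGB3, chrX:150154148-150154180, plus strand, no peak: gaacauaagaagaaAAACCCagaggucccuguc
Here 27 of 33 letters in HMGB2 and 25 in HMGB3 were as in HMGB1, GCACCC was present in HMGB1 alone, and the shorter CACCC also in HMGB2 but not in HMGB3.

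At the HMGB2 peak with a score of 12, capitals mark the letters aligned with its CACCC.
HMGB1, chr13:31036780-31036809, minus strand, no peak: aucaaaggagaaCAUCCuggccuguccauu
HMGB2, chr4:174254077-174254106, minus strand, score 12: aucaaaagugaaCACCCuggccuauccauu
HMGB3, chrX:150155641-150155670, plus strand, score 18: aucaaauccacaAACCCcggcaucucuauu
HMGB3, with 20 of 30 letters as in HMGB2, had a peak here without CACCC, and HMGB1, with 26 of 30, had none. Each set was picked from a word that lies under a peak, and the words differ between sets, so they show the letters at these positions and not how often a word and a peak go together.

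All 4 HMGA peaks had a 7mer or 8mer of miR-342-5p close to the summit, shown in capitals, and each lay in an intron.
HMGA2, chr12:66253004-66253033, plus strand, score 19: aacuaucaauaGCACCCCuuucacucccca
HMGA2, chr12:66271789-66271818, plus strand, score 15: agaaccuacuuGCACCCCAgccaaggguga
HMGA2, chr12:66286842-66286871, plus strand, score 10: auggcuacacuGCACCCCggucacaggcuc
HMGA1, chr6:34211365-34211394, plus strand, score 21: ccugaugcuauGCACCCCcuauggaaaggc

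The HMGA2 peaks, at chr12:66252987-66253051, chr12:66271781-66271834 and chr12:66286826-66286875, all lie in the third intron of the canonical transcript, which is 112813 nt long. Their sites start 13, 5 and 10 nt before the summit, and that with a score of 15 is an 8mer. The HMGA1 peak, at chr6:34211304-34211402, lies in intron 5 (1312 nt), with its site starting 6 nt after the summit. The HMGA2 peaks with scores of 19 and 15 lie opposite the long non-coding RNA HMGA2-AS1, but no site was present on that strand of the windows. A 7mer or 8mer was present in 192 of all 253 miR-342-5p peaks in introns (75.9%), whose median score was 14. The predicted duplexes paired all 7 seed bases, with -22.5, -16.2 and -23.0 kcal/mol at HMGA2 (in the order of the coordinates) and -19.5 kcal/mol at HMGA1, beside a median of -17.6 over the list. At the 6 coding windows of the HMGB genes, the energy was between -16.5 and -13.9 kcal/mol, above the median of the list in each.

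Sites without a peak were counted in all annotated exons and introns of the members. For miR-342-3p, the exons of the 9 genes hold 1 7mer or 8mer, a 7mer-A1 at chr12:66350480-66350486 in an HMGA2 3′UTR outside the canonical transcript, with no peak. The introns hold 71, and 0 had a peak. Over all protein-coding genes with a miR-342-3p peak, 0.43% of the miR-342-3p sites in introns carried one, so nothing is read from this absence. For miR-342-5p, the exons hold 6 sites, all in 3′UTRs and 0 with a peak. These are 8mers in HMGB1 (chr13:31030913-31030920), HMGA2 (chr12:66348928-66348935, outside the canonical transcript) and HMGN3 (chr6:79911822-79911829), and 7mer-A1 sites in HMGA2 (chr12:66357540-66357546) and HMGB3 (chrX:150157814-150157820 and chrX:150159079-150159085). Of the 6, 5 are in genes that had a miR-342-5p peak elsewhere. Over all protein-coding genes with a peak of the list, 31.6% of the miR-342-5p sites in 3′UTRs carried one, as did 21.9% of the miR-342-3p sites. Genes can enter these shares through a peak at such a site. The HMGN3 site and the miR-342-3p site of HMGA2 lie in genes without a peak of the matching list. The shares are therefore not a like comparison, and nothing is read from the absence in the members. The exons of HMGB2 hold no 7mer or 8mer of either miRNA. In introns, a peak was present over 3 of 14 miR-342-5p sites in HMGA2 and 1 of 4 in HMGA1. None was present over the 18 in HMGB1 or the 1 in HMGB2. Over all genes with a peak of the list, 1.68% of such sites carried one. HMGA1 and HMGA2 had miR-342-5p peaks in introns alone and count as genes with a peak through them, so nothing is read from the difference.

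No peak of either list lay in HMGN1, HMGN2, HMGN3 or HMGN4, on either strand. Each list reached only 11.8% of protein-coding genes on their own strand, so the absence is not read as a result about the HMGN genes. Binding under the lowest score would not appear in the lists. Their exons hold 1 site for miR-342-5p, the 8mer of HMGN3, and none for miR-342-3p.

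Many HMG genes have processed pseudogenes, copies of the mRNA inserted elsewhere in the genome, to which a short read may map as well. The annotation holds 157 pseudogenes named after the members, among them 48 of HMGB1, 38 of HMGN2, 32 of HMGN1, 29 of HMGB3 and 1 of HMGB2, and 0 had a peak in either list. No share over all annotated pseudogenes is at hand, and the treatment of reads that map to several places is not given. The absence is therefore not read as a result about the copies. Of the 30-nt words of the mRNAs, 42.6% were found elsewhere in the genome for HMGB1, 4.89% for HMGB2, 32.3% for HMGB3, 49.8% for HMGA1, 1.2% for HMGA2, 72.5% for HMGN1, 53.4% for HMGN2, 9.9% for HMGN3 and 0.313% for HMGN4. In the coding sequence of HMGB1 this share was 93.8%, in that of HMGB2 7.18%. The search counted copies of any kind, so these shares are not of pseudogenes alone. Single words had up to 93525 other copies for HMGB1 and 24347 for HMGA2, which has 0 annotated pseudogenes. The members without a peak thus include HMGN1 and HMGN2, mostly not unique, and HMGN3 and HMGN4, nearly unique.

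**Figure D5:**
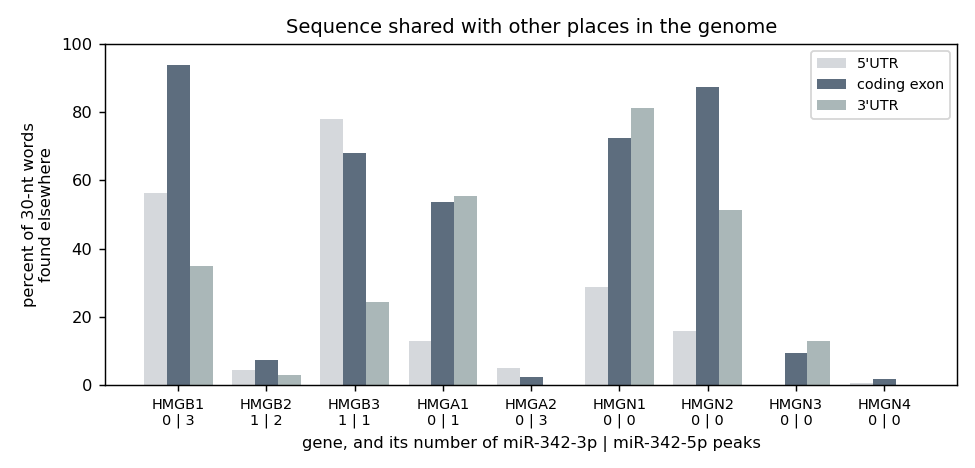
Percent of 30-nt words (y axis) of the 5′UTR, coding exons and 3′UTR of each member (x axis) that were found elsewhere in the genome, with the number of peaks of each list (3p, then 5p) under each name. HMGB2, HMGA2, HMGN3 and HMGN4 are largely unique, and the coding sequences of HMGB1 (93.8%) and HMGN2 (87.4%) are not.

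At the summits, 8 of the 12 windows held at least 1 word found elsewhere, which was the case for 20% of all miR-342-3p windows and 12% of the miR-342-5p windows. Of the 72 words of a window, 8 were found elsewhere at the HMGB2 peak with a score of 634 and 63 at that of HMGB3 with a score of 72. In the miR-342-5p list, all 72 were at the HMGB1 peak with a score of 17, 27 at the one with 59 and 35 at the one with 6, 59 at HMGB3, and 4 and 21 at the HMGB2 peaks with scores of 20 and 12. At the 4 HMGA peaks 0 were. How the read filter treated fragments that map to several places is not given in the sources used here, and the part of such fragments in these scores was not tested.

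Related genes were looked up in 4 lists that hold 24 genes, of which 4 had a miR-342-3p peak and 4 a miR-342-5p peak. Over all protein-coding genes the share with a peak was 11.8% in each list, and nothing is read from the counts of related genes. Of 12 other HMG box genes, 3 had a miR-342-3p peak and 3 a miR-342-5p peak. The highest in both was UBTF, a factor of ribosomal RNA transcription, with 46 in the 3′UTR for miR-342-3p (with a 7mer, at 18 nt of alternating GU) and 30 for miR-342-5p in a coding exon, with an offset 7mer. Of the 6 genes of the SET complex, to which HMGB2 belongs, NME1 alone had peaks, the highest with 29 and 14 and both in the 3′UTR without a site. HMGN5 and the 5 receptors of extracellular HMGB1 had 0 peaks.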

How the data were processed

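The Ago-HITS-CLIP experiment used 231HM cells, with 9 libraries in 3 groups. Per the submitters' processing notes and the paper's methods, reads were trimmed with cutadapt 1.13, handled with UMI-tools, mapped to hg19 with TopHat2 2.0.13 and filtered for quality with Samtools, and peaks were called with MACS2 2.1.1.20160309 over the negative control. Further parameters, and the scaling of libraries to each other, are not given in the sources used here. The authors deposited a score for each peak, described as reads above background. The replicates were merged, so depth per sample is unknown and no test was run. The members and lists were chosen with earlier results of these data known.

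Positions (1-based) were placed by their midpoint on GRCh37 and the basic transcripts of GENCODE release 44, in the order 3′UTR (with the stop codon), coding exon, 5′UTR, non-coding exon, intron; canonical transcripts gave codons. Windows were 50 nt on each side of the summit. Duplexes were predicted with RNAduplex (ViennaRNA 2.7.2), proteins translated from the coding exons and aligned with Biopython 1.88 (BLOSUM62, global). Words of 30 nt were sought on both strands of the genome. Mitochondrial peaks stayed in the ranks of scores and out of the other counts. Python 3.11.15, pysam 0.24.0, numpy 2.4.6, samtools 1.23.1 and matplotlib 3.10.9 were used. Searches were tested on simulated data. Named are all members, pseudogenes with a peak, and from each related list the gene with the highest score per peak list; HMGA2-AS1 was named after its values were seen. A further related list is not reported here. Alternatives were other scores, overlaps, windows, site types, locations and word lengths.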

Additional observations from a re-analysis of the deposited data

How the results depend on the processing

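Of 40 alternatives over 12 results, 31 left the value the same or within 1.5 times of it. The others were mostly stricter scores. At a score above 100, HMGB2 remained as the only peak and the only gene of the miR-342-3p list (1 and 1), and 0 peaks in 0 genes were left in the miR-342-5p list. At a score above 50, 1 miR-342-5p peak in 1 gene was left, that of HMGB1. On the opposite strand of the members, 0 miR-342-3p and 0 miR-342-5p peaks were found. With 8mers alone, 1 miR-342-5p peak had a site, in place of 4. With words of 20 and 40 nt, 10 and 6 windows were not unique, in place of 8. No paired analysis was possible because the lists merge the replicates and no value per library could be used. Depth limits all absences, since binding under a score of 5 is not listed.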
